A study of Homo sapiens with 8 samples.

Results

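The 10 genes described here are inhibitors and feedback targets of the WNT pathway: SFRP1, SFRP2, FRZB, DKK1, DKK3, AXIN2, SP5, LEF1, NKD1 and BAMBI. They were taken by symbol, and the list was chosen with earlier results of these data known. Of the 54675 probe sets of the array, 29 were annotated to one of them alone. Each of the 10 had at least 1 probe set above the filter on low values, so all 10 were among the 14726 genes tested. The RNA was total RNA from cultures of the human embryonic stem cell line H1, kept in gelatin-coated wells on irradiated mouse embryonic fibroblasts. A flow cytometer separated the cells by forward and side scatter, optical measures that vary with cell size and granularity, into a large and a small subpopulation. Both groups were untreated and came from the same line, and each had 4 sorts that the submitters call biological repeats, with 1 array of the Affymetrix U133 Plus 2.0 type per sort. The scatter gates, and whether equally numbered sorts shared a culture, are not given in the sources used here, so the p-values measure the spread between these sorts of 1 line.

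WNT ligands bind Frizzled receptors and the co-receptors LRP5 and LRP6, which halts the breakdown of beta-catenin and lets it activate genes together with TCF and LEF factors. Secreted inhibitors act outside the cell, where the SFRP family and FRZB bind WNT ligands and DKK1 blocks the LRP co-receptors. AXIN2, NKD1, SP5 and LEF1 are switched on by the pathway itself in many tissues, and several of them dampen it in turn. In human embryonic stem cells WNT activity is kept low in the undifferentiated state and rises on the way to mesendoderm, and BAMBI, a decoy receptor of the TGF-beta superfamily, is a target of both WNT and BMP signals.

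The RefSeq promoters of SFRP2, DKK1 and SP5 are shown (assembly GRCh38.p14, 300 bases from 250 before the start site to 50 after it). SFRP2 was the member that passed the test. DKK1 and SP5 were the members, among those searched, whose promoter held the letters of a TCF and LEF motif. SFRP1, DKK3, AXIN2 and NKD1 had no entry among the RefSeq promoters used, so they were not searched. The search used the letters CTTTG followed by AA, AT, TA or TT, on both strands, and capitals mark the matches, which appear as the reverse complement where the match is on the other strand. The SFRP2 promoter lies at chr4:153789034-153789333 on the minus strand, that of DKK1 at chr10:52314031-52314330 on the plus strand and that of SP5 at chr2:170715087-170715386 on the plus strand.
SFRP2: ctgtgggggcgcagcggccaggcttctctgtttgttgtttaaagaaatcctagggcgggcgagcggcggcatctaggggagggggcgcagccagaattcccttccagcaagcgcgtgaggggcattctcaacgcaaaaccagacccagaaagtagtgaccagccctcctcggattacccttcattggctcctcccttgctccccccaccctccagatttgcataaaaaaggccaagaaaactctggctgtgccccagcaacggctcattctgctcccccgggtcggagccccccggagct
DKK1: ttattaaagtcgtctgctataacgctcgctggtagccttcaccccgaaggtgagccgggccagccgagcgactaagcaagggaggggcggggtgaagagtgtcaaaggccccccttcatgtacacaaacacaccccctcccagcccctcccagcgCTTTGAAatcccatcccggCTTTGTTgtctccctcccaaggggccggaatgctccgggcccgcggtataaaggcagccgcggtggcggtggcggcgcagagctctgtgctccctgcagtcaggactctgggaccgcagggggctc
SP5: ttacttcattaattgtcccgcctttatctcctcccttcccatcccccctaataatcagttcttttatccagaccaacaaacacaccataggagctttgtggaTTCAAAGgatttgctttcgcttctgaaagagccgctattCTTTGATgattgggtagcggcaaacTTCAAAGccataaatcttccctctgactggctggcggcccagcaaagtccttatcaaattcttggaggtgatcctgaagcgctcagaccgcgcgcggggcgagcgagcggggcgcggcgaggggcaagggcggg
The SP5 promoter held 3 matches, none of which overlapped another, with their first base 148, 109 and 84 bases before the start site. The DKK1 promoter held 2 matches, 95 and 76 bases before it. No match was found in the windows of SFRP2, FRZB, LEF1 and BAMBI, which says only that these letters are not in these 300 bases. The LEF1 window (chr4:108166252-108166551, minus strand) lies at a start site inside the gene, whose span runs to 108168932. The sequence at that outer end of LEF1 was not searched. Of 35116 promoters of the same length in the table, 4829 (13.8%) held at least 1 match, 556 (1.58%) at least 2 and 63 (0.179%) at least 3. A match is a sequence feature and does not show that a factor bound there.

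Facts of the whole array set bear on all values below. The deposited intensities had no common scale, with 75th percentiles from 41.9 to 105.6 units that did not separate the groups (exact two-sided permutation p = 0.714), so they were quantile-normalized on the log2 scale. Levels are therefore log2 values relative to the RNA measured, not amounts per cell, and in bulk RNA fewer expressing cells and less RNA per cell cannot be told apart. The 3 prime to 5 prime log2 difference of the GAPDH and ACTB control probe sets, a sign of RNA quality, ran from 1.94 to 2.66 on the small arrays. It was 2.91 on large array 1 and between 1.83 and 1.89 on large arrays 2 to 4 (exact two-sided permutation p = 0.4 between the groups). Of the defining stem cell markers, NANOG was at 10.67 ± 0.08 (SD, n = 4) in small and 10.73 ± 0.07 in large cells and LIN28A at 11.59 ± 0.17 and 11.60 ± 0.24, while SOX2 was at 10.29 ± 0.08 and 10.46 ± 0.13. Of the 10 tested genes of that marker list, the sialomucin gene PODXL was lower in small cells (log2 difference -0.98 ± 0.15 SE, adjusted p = 0.00754 in limma) and the others did not pass. POU5F1 and TDGF1, also on that list, had no probe set annotated to them alone and were not tested.

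Of the 10 genes, SFRP2 alone passed the test between small and large cells, and it was lower in small cells by 1.76-fold. SFRP1 was lower by a similar amount, 1.73-fold, with a wider spread between sorts of a group, and it did not pass in the unpaired fit. The pathway's feedback targets AXIN2, NKD1, SP5 and LEF1 and the decoy receptor BAMBI had differences between -0.43 and 0.37 on the log2 scale, none of which passed. Read against all genes tested, of which 1.99% were called in either direction and 1.69% lower at an adjusted p under 0.05, the count of 1 in 10 rests on a single gene. In 6 of the 10 genes the difference was below 0, and the median over the 10 was -0.10, beside 0.05 over all genes tested, of which 44.0% were below 0.

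**Figure D1:**
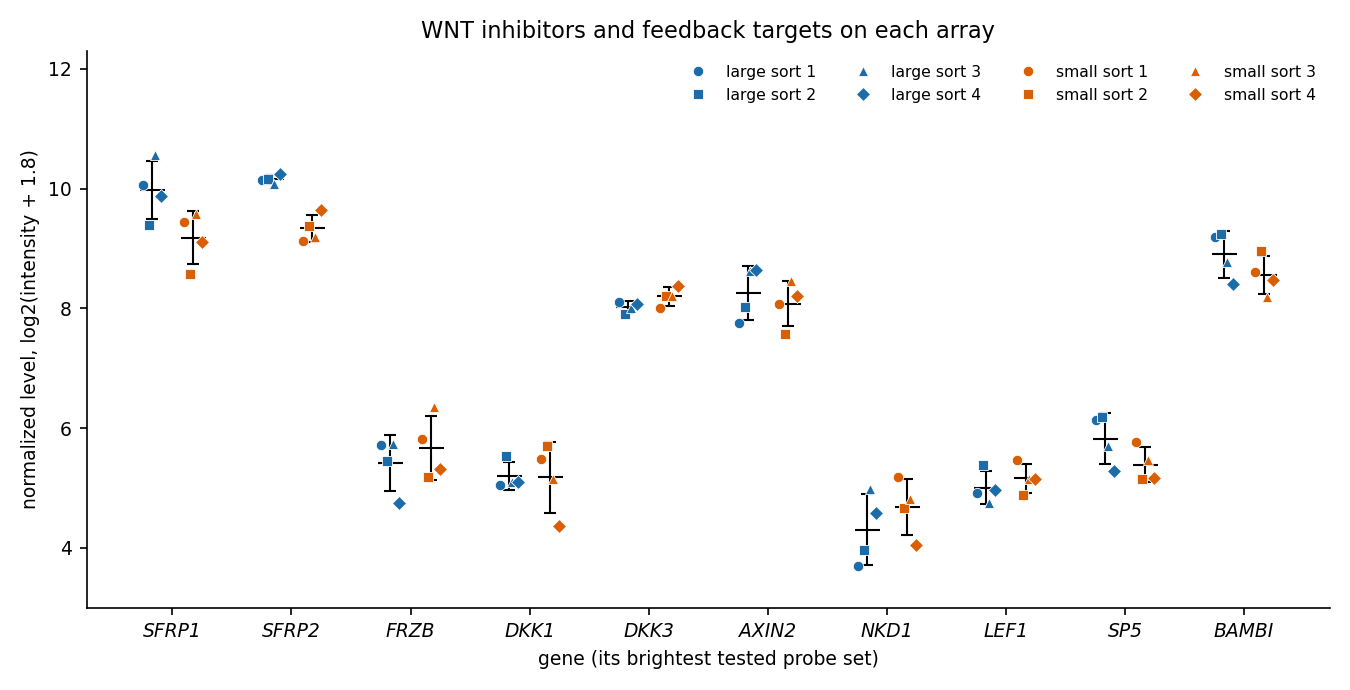
Normalized log2 level of each of the 10 genes on its brightest tested probe set (vertical axis) for the 4 large arrays (blue) and the 4 small arrays (orange), with 1 symbol per sort and black bars for the mean ± SD. The small and large values of SFRP2 are fully separated, from 9.13 to 9.64 against 10.08 to 10.24, while those of the other 9 genes overlap. Levels of different probe sets are not comparable with each other.

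SFRP2 encodes a secreted protein with a Frizzled-like domain that binds WNT ligands. On its brightest probe set, 223122_s_at, it was at 10.14, 10.15, 10.08 and 10.24 on large arrays 1 to 4 and at 9.13, 9.38, 9.20 and 9.64 on small arrays 1 to 4. Each small array lay below each large array, and the large sorts were close together (SD 0.07) while the small ones spread more widely (SD 0.23). The groups did not overlap for SFRP2, which held for 10% of all genes tested, 5.07% lower in small cells. The log2 difference was -0.82 ± 0.14 SE (95% interval -1.11 to -0.52, n = 4 per group, adjusted p = 0.0106 in limma).

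The second SFRP2 probe set, 223121_s_at, read 9.32, 9.38, 9.16 and 9.47 on the large arrays and 8.62, 8.52, 8.79 and 9.01 on the small ones. Its groups did not overlap either, and its difference had the same sign at -0.60 ± 0.15 SE, but over all 32768 probe sets tested it did not pass (adjusted p = 0.0642), where 223122_s_at did (adjusted p = 0.0150). Over all probe sets tested 1.5% were called and 9.34% did not overlap.

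The deposited intensities of 223122_s_at were 691, 993, 1718 and 1421 units in large and 551, 488, 1041 and 607 units in small sorts. On that scale the groups overlapped, since small array 3 was above large arrays 1 and 2. The difference had the same size there (-0.82 ± 0.45 SE) with a wider error, and it did not pass (adjusted p = 1.00). Median centring (-0.68 ± 0.21 SE, adjusted p = 0.302) and a fit with no variance trend (-0.82 ± 0.16 SE, adjusted p = 0.118) also ended the call, as these 3 settings did for the receptors and TPBG named further on. The settings therefore decided whether SFRP2 passed but not its direction. Adding the 3 prime to 5 prime measure to the model put SFRP2 at -0.80 ± 0.15 SE (adjusted p = 0.0297), and without large array 1 and small array 3 at -0.78 ± 0.15 SE (adjusted p = 0.0167). Leaving out large array 4 gave an adjusted p of 0.0503 and leaving out small array 1 one of 0.0514, so either omission ended the call, with values between 0.00741 and 0.0514 over the 8 fits that left out 1 array.

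SFRP1, a secreted WNT-binding protein of the same family, read 10.06, 9.38, 10.56 and 9.87 on large arrays 1 to 4 and 9.45, 8.58, 9.58 and 9.11 on small arrays 1 to 4 on its brightest probe set, 202037_s_at. Large array 2 was lower than small arrays 1 and 3, so the groups overlapped. The log2 difference was -0.79 ± 0.25 SE (95% interval -1.32 to -0.26, adjusted p = 0.123 in limma). Without large array 2 the groups did not overlap and the difference was -0.99 ± 0.24 SE (adjusted p = 0.0725), and it did not pass with any 1 array left out.

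The 3 tested probe sets of SFRP1 did not give the same picture. The second, 202036_s_at, differed by -0.51 ± 0.26 SE and the third, 202035_s_at, by 0.13 ± 0.35 SE. The third read 8.96 on large array 1 and 7.86, 7.35 and 7.05 on large arrays 2 to 4, beside 8.48, 7.30, 8.09 and 7.87 on small arrays 1 to 4. Its 4 highest values were thus on large array 1 and small arrays 1, 3 and 4, which were also the 4 arrays with the highest 3 prime to 5 prime difference of the control genes, although small array 4 and large array 2 were nearly equal. With that measure in the model the 3 probe sets stood at -0.90 ± 0.25, -0.72 ± 0.21 and -0.21 ± 0.23 SE, none of which passed. The mean of the 3 probe sets differed by -0.39 ± 0.24 SE (adjusted p = 0.486 in limma), less than the brightest one did. All SFRP1 and SFRP2 probe sets end in _s_at, a suffix that Affymetrix gives to probe sets that can bind several transcripts.

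**Figure D2:**
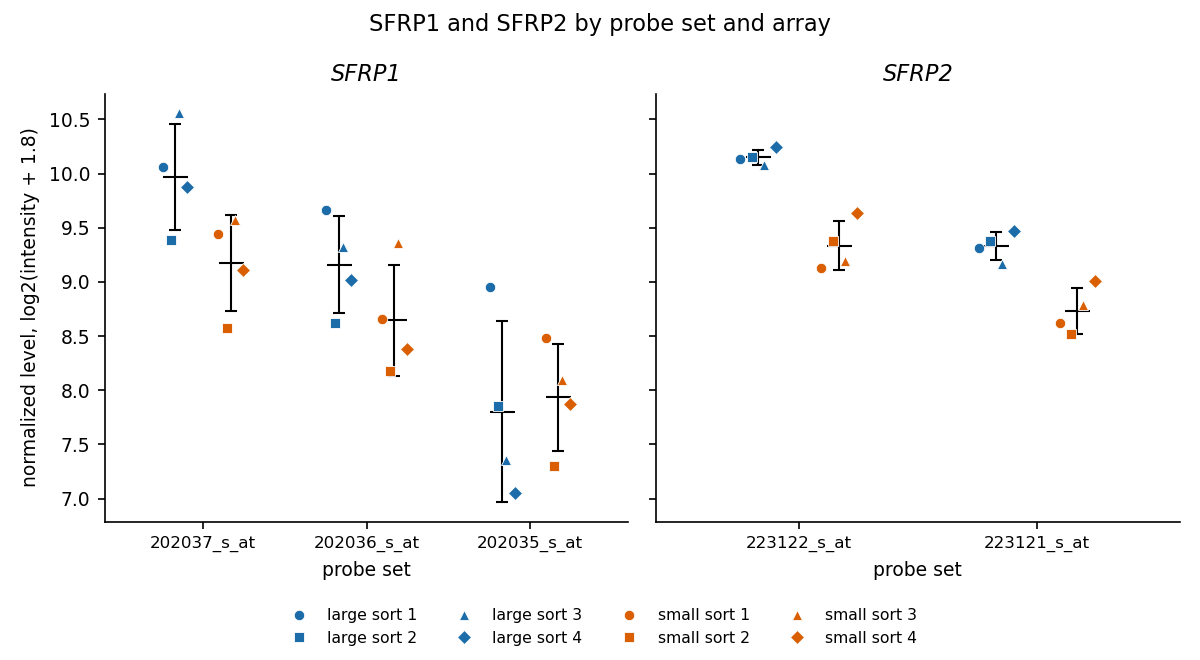
Normalized log2 level (vertical axis) of the 3 tested probe sets of SFRP1 and the 2 of SFRP2, for large (blue) and small (orange) arrays, with 1 symbol per sort and bars for the mean ± SD. Both SFRP2 probe sets separate the groups, whereas for SFRP1 the means of 202037_s_at and 202036_s_at are lower in small cells and the mean of 202035_s_at is higher, with large array 1 at 8.96.

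FRZB, the secreted Frizzled-related protein first found in cartilage, read 5.72, 5.46, 5.74 and 4.75 on the large and 5.82, 5.18, 6.35 and 5.32 on the small arrays. The groups overlapped over most of their range, and the difference of 0.25 ± 0.30 SE did not pass (95% interval -0.40 to 0.90). All 3 of its tested probe sets had a difference above 0, opposite in sign to SFRP2. Over the 8 fits with 1 array left out it ran from 0.022 to 0.42.

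DKK1, which blocks the LRP co-receptors, read 5.05, 5.54, 5.10 and 5.11 on the large and 5.49, 5.70, 5.15 and 4.37 on the small arrays. The small sorts spanned 1.33 and enclosed all large sorts, and the difference was -0.02 ± 0.30 SE (95% interval -0.67 to 0.62). Its sign rested on single arrays, at 0.25 without small array 4 and 0.091 without large array 2. DKK3, a divergent member of the DKK family, was the member that varied least, at 8.11, 7.90, 8.003 and 8.08 on the large and 8.004, 8.21, 8.20 and 8.38 on the small arrays. Small array 1 lay among the large values, and the difference of 0.17 ± 0.15 SE did not pass (95% interval -0.14 to 0.49). Its other tested probe sets stood at 0.40 ± 0.24 and -0.34 ± 0.37 SE, with opposite signs.

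AXIN2, a scaffold of the beta-catenin destruction complex and a widely used readout of WNT activity, was at 7.75, 8.02, 8.63 and 8.64 on the large and 8.07, 7.57, 8.46 and 8.21 on the small arrays. In each group the sorts spanned 0.88, which exceeded the difference between groups of -0.18 ± 0.23 SE (95% interval -0.68 to 0.33). Its second tested probe set differed by -0.28 ± 0.49 SE. NKD1, which binds Dishevelled and restrains the pathway, read 3.69, 3.96, 4.98 and 4.59 on the large and 5.18, 4.66, 4.82 and 4.05 on the small arrays. The 2 lowest values were on large arrays 1 and 2, the groups overlapped, and the difference was 0.37 ± 0.38 SE (95% interval -0.44 to 1.19).

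SP5, a transcription factor activated directly by WNT in early embryos, read 6.13, 6.19, 5.71 and 5.28 on the large and 5.77, 5.16, 5.47 and 5.17 on the small arrays. Large arrays 1 and 2 were above all small arrays while large arrays 3 and 4 were not, and the difference was -0.43 ± 0.26 SE (95% interval -0.99 to 0.12, adjusted p = 0.431). LEF1, a nuclear partner of beta-catenin and itself a target, read 4.92, 5.38, 4.75 and 4.97 on the large and 5.47, 4.89, 5.15 and 5.15 on the small arrays, a difference of 0.16 ± 0.25 SE (95% interval -0.39 to 0.70). SP5 and LEF1 thus stood on opposite sides of 0, with intervals that overlap.

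BAMBI read 9.19, 9.25, 8.77 and 8.40 on the large and 8.61, 8.96, 8.19 and 8.47 on the small arrays. As for SP5, large arrays 1 and 2 held the 2 highest values and large array 4 the lowest of its group. The difference was -0.34 ± 0.21 SE (95% interval -0.80 to 0.11, adjusted p = 0.450). For SP5 and BAMBI the difference stayed below 0 in all 21 refits that changed the scaling, the filter, the pseudocount, the model or the arrays, from -0.61 to -0.32 and from -0.51 to -0.13, and passed in none of them.

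Of the 29 probe sets of the 10 genes, 19 passed the filter, 10 with a difference below 0 and 9 above it. The 10 others belonged to SFRP1, FRZB, AXIN2 and NKD1, DKK3 and LEF1, and their mean lay below the 40th percentile of probe sets. They stood between -0.93 and 0.65 and were not tested.

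**Figure D3:**
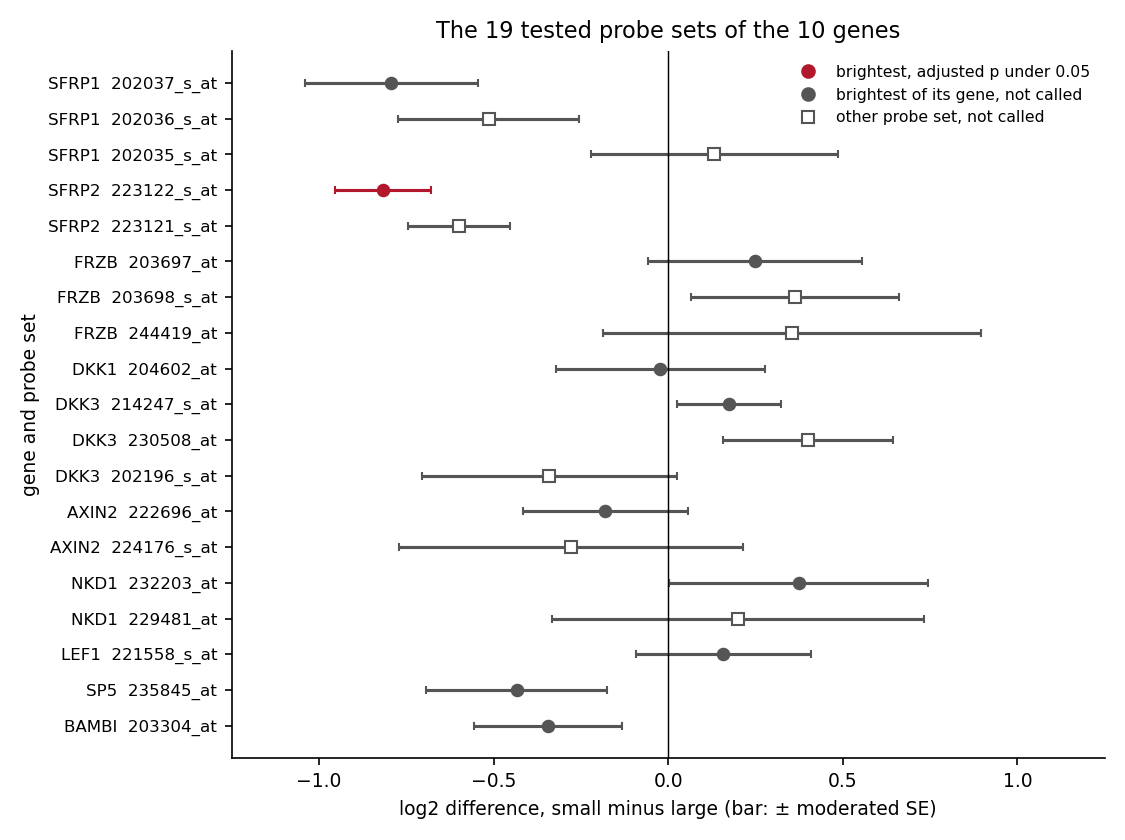
Log2 difference, small minus large (horizontal axis), of the 19 tested probe sets with the moderated standard error as bar; filled circles are the brightest probe set of each gene and open squares the others. The point for SFRP2 223122_s_at, at -0.82, is the one that passed, and the probe sets of SFRP1 and DKK3 lie on both sides of 0.

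**Figure D4:**
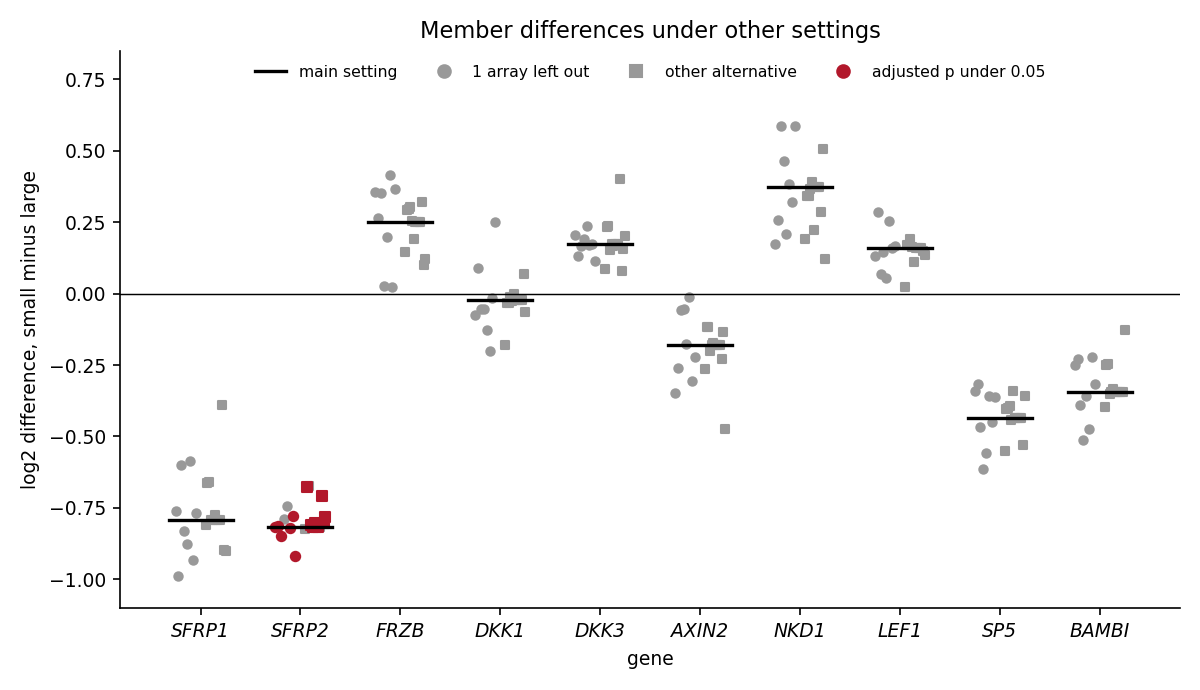
Log2 difference, small minus large (vertical axis), of each gene in the main setting (black line), with 1 array left out (circles) and under other scalings, filters, pseudocounts, models or probe sets (squares); red marks an adjusted p under 0.05. SFRP2 stays between -0.92 and -0.68 and passes in 15 of 20 refits, and DKK1 is the gene whose sign changes.

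By Pearson correlation over the 8 arrays, the 3 genes with the pattern most like that of SFRP2 among the 14726 tested were VWA8 (r = 0.993), TMEM50A (r = 0.991) and GALNT7, a glycosyltransferase of the Golgi (r = 0.990). All 3 were lower in small cells, by -0.74 ± 0.18 SE, -0.64 ± 0.12 and -0.93 ± 0.16 on the log2 scale. The likeness is a description, since the 8 values fall into the same 2 groups for each gene.

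Around these genes, the WNT receptors and co-receptors were the part of the pathway in which most called genes lay. Of 14 tested, 3 were lower in small cells and 0 higher, 13 had a difference below 0, and their median was -0.39. Over all genes tested 1.69% were called lower, 44.0% had a difference below 0 and the median was 0.05. LRP6, the co-receptor that DKK1 binds, was at 9.40 ± 0.28 (SD) in large and 8.39 ± 0.12 in small cells and differed by -1.01 ± 0.16 SE (adjusted p = 0.00754 in limma), a call kept with each of the 8 arrays left out in turn. The Frizzled receptors FZD7 (-1.24 ± 0.24 SE, adjusted p = 0.0214) and FZD5 (-0.83 ± 0.17, adjusted p = 0.0287) were the others, with calls kept in 3 and 2 of those 8 fits and adjusted p up to 0.0823 and 0.108. Over all refits FZD7 passed in 12 of 20 and FZD5 in 8 of 21. Both were read on probe sets ending in _s_at, and without _x_at and _s_at probe sets 1 receptor was called.

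Of 11 other extracellular and cell-surface WNT inhibitors tested, 1 was lower and 0 higher, with a median of -0.12. That gene was TPBG, a membrane glycoprotein that dampens WNT signalling at the cell surface, at 8.60, 8.68, 8.27 and 8.30 on the large and 7.44, 7.36, 7.49 and 8.07 on the small arrays. As with SFRP2, all small arrays lay below all large ones, which held for 5.07% of all genes tested, and small array 4 was the highest of its group. The difference was -0.87 ± 0.19 SE (adjusted p = 0.0315 in limma), and the call was kept in 2 of 8 fits with 1 array left out, with adjusted p up to 0.110. Over all refits TPBG passed in 11 of 21.

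None of the 18 other feedback genes and targets tested passed, and their median was 0.02. That median moved with the setting. It was 0.26 with no filter, 0.20 with the filter at the 60th percentile and -0.07 without _x_at and _s_at probe sets. The smallest p-values were those of the Notch ligand JAG1 (-0.69 ± 0.25 SE, adjusted p = 0.186) and ZNRF3, a ubiquitin ligase that removes Frizzled receptors (-0.46 ± 0.21, adjusted p = 0.300). Of 13 ligands and secretion factors none passed, with a median of 0.15, WNT16 at 1.07 ± 0.42 and WNT5A at -0.57 ± 0.23 (adjusted p = 0.221 and 0.228 in limma). WNT16 had a large mean of 3.63, close to the filter of 3.62. WNT2 had a large mean of 3.58, under the filter, and came above it through a small mean of 4.45. With the filter at the 60th percentile the median of the ligand list was -0.16, so its sign depended on the filter.

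In the core of the beta-catenin pathway 0 of 23 genes passed (median 0.03), with the deubiquitinase gene USP34 at -0.44 ± 0.16 and the GSK3-binding FRAT2 at -0.59 ± 0.23. In the TCF transcription complex it was 0 of 13 (median -0.01), with the co-repressor TLE2 at 0.31 ± 0.20 and the coactivator BCL9 at -0.26 ± 0.22. Of 14 genes of a BMP and TGF-beta list, which held ligands and receptors beside feedback genes, 0 passed (median -0.01). SMAD co-repressor SKIL was at -0.42 ± 0.14 and the ubiquitin ligase SMURF2 at 0.41 ± 0.20. At an unadjusted p under 0.05, which 16.5% of all genes tested reached, limma gave 2 of the 10 members (SFRP1 and SFRP2), 8 of the 14 receptors and co-receptors, 2 of the 11 other inhibitors, 2 of 18 feedback genes, 2 of 13 ligands, 3 of 23 core genes, 0 of 13 in the TCF complex and 1 of 14 BMP or TGF-beta genes.

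**Figure D5:**
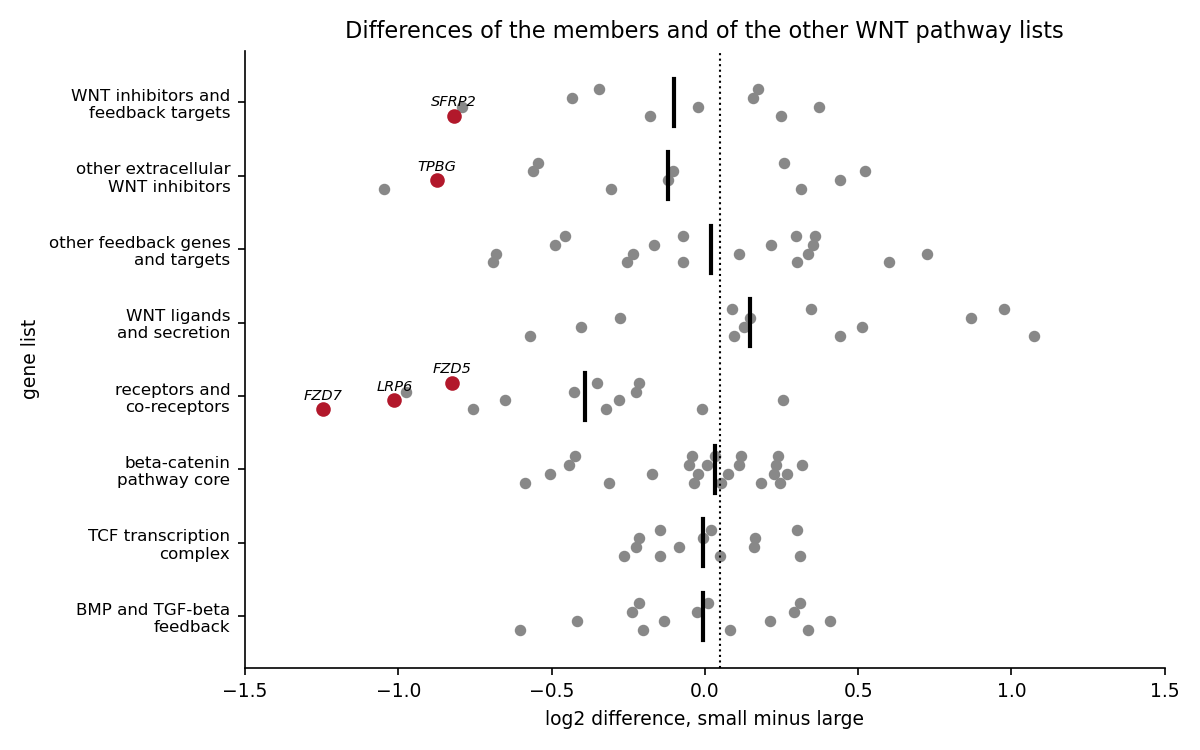
Log2 difference, small minus large (horizontal axis), of each tested gene of the 10 WNT inhibitors and feedback targets and of 7 other lists. The list labelled BMP and TGF-beta feedback is not of the WNT pathway and also holds ligands and receptors. Black bars give the median of each list, red marks an adjusted p under 0.05 and the dotted line is the median of all genes. The called genes, SFRP2, TPBG, LRP6, FZD5 and FZD7, are all lower in small cells, as were 249 of the 293 genes called on the whole array. The list of receptors and co-receptors has the lowest median at -0.39.

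Markers of other cell types were read beside these values, since SFRP1, SFRP2 and FRZB are also made by neural and mesenchymal cells. All 8 tested neuroectoderm markers were above 0 and none passed, while 44.0% of all genes tested were below 0. Their mean level lay between 5.76 and 5.95 on the small and 4.93 and 5.35 on the large arrays. LHX2 and STMN2 had large means of 3.26 and 3.36, under the filter of 3.62, and passed it through small means of 4.20 and 4.51. The shared sign therefore depends in part on the filter. PAX6 had the largest difference in this list (1.77 ± 0.52 SE, adjusted p = 0.106 in limma). It read 5.63 on large array 1 and 3.22, 2.74 and 3.24, under the filter value, on large arrays 2 to 4. ZIC1 and SIX3 were below the filter. The mean level of the 10 fibroblast markers was between 7.14 and 8.13 on the small and 6.97 and 8.20 on the large arrays. Of these 10, 5 had a difference below 0, the median was 0.007 and none passed. VIM was higher on all small arrays (1.12 ± 0.30, adjusted p = 0.0723 in limma), while COL1A1 stood at -0.59 ± 0.28. Of the primitive streak and mesoderm markers, the 5 tested had a median of -0.12, with the VEGF receptor gene KDR lower (-1.46 ± 0.29, adjusted p = 0.0236) and the WNT target TBXT at 0.30 ± 0.41. Endoderm markers stood above 0 in 4 of 4 tested and trophoblast markers below 0 in 4 of 4 tested, and none passed. From these lists, FOXA2, GATA4, CGA and CDX2 were below the filter. HNF4A and CGB3 had no probe set annotated to them alone. The part of these markers in the values of the 10 genes was not tested.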

How the data were processed

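Expression was measured on 8 arrays, 4 of small and 4 of large sorted cells. Each array took cRNA from 1 ug of total RNA, per the labels' protocols. The deposited values are linear intensities, 1 for each probe set on each array; the series' design text names GeneChip Operating Software and Rosetta Resolver (version 7.1), and neither the program behind the intensities nor their background correction was found in the labels or the table.

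The 10th percentile of the table, 1.814, served as pseudocount, log2 values were taken and the arrays quantile-normalized, which assumes equal distributions. Controls (62 probe sets) were dropped, and 32768 others with a mean above the 40th percentile (3.62) were tested. GEO's platform annotation gave 41091 probe sets 1 symbol, 1801 several and 11721 none; 41037 were found by gene ID in RefSeq's gene table. Each gene was represented by its tested probe set with the highest mean. The test was limma 3.58.1 under R 4.3.3, with lmFit and a trended eBayes, two-sided, with Benjamini-Hochberg adjustment over all 14726 genes or all tested probe sets, at 0.05. The procedure was tested on simulated data. There it called 7 of 67 genes shifted by 0.58 on the log2 scale, 22 of 67 shifted by 1 and 37 of 66 shifted by 1.5. It also called 5 unchanged genes. A gene that did not pass may therefore still differ. The 4 arrays per group limit the precision; the median standard error over genes was 0.235. Equal replicate numbers were checked for pairing and not used as such. Named were all 10 members, the 3 genes most like each called member, and in each pathway list the called genes or, where there were none, the 2 with the smallest p; a few cell type markers were named after their values were seen. The 10 members and the gene lists were chosen with earlier results of these data known. Another 23 settings were tried, 8 of which left out 1 array. Of the 10 members, 6 were found in the RefSeq promoter table.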

Additional observations from a re-analysis of the deposited data

Results flagged for a closer look

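DKK1 on large array 2 stood apart from the other large arrays, at 5.54 against 5.05 to 5.11 on the log2 scale. Chance gives such a gap in about 1 of 20 groups, and 20 groups (10 genes in small and in large cells) were examined. Without that array the DKK1 difference was 0.091 in place of -0.02, and it passed in neither case.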

How the results depend on the processing

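Of the 10 members, 9 kept the sign of their difference in every setting tried; SFRP1 and SFRP2 gave no value once _x_at and _s_at probe sets were dropped, nor did LEF1, and NKD1 gave none with the filter at the 60th percentile. DKK1 changed sign with the 3 prime to 5 prime covariate (0.068) and with large array 2 (0.091) or small array 4 (0.25) left out, in a range from -0.20 to 0.25 over the 8 single omissions. The main setting called 293 genes, 44 higher and 249 lower in small cells; with 75th percentile scaling it was 62 and 148. limma called 0 genes, and 0 members, under each of the deposited scaling, median centring and a fit with no variance trend, with 494, 1575 and 2234 genes and 0, 1 and 2 members at an unadjusted p under 0.05; there SFRP2 was at -0.82, -0.68 and -0.82. These settings also ended the calls of the receptors and of TPBG. Without those probe sets 190 genes were called and 0 members, with 0 members at an unadjusted p under 0.05. The count was 155 with the covariate, 776 without large array 1 and small array 3, and 593 at an adjusted p under 0.10. With 1 array left out it ran from 62, when small array 1 was dropped, to 553, when large array 1 was, and the members called from 0 to 1. Members without overlap were 1 in the main setting (SFRP2), 0 on the deposited scaling and without those probe sets, and from 1 to 2 with 1 array left out, when SFRP1 (without large array 2) or DKK3 (without small array 1) joined. The cause of these changes was not tested. The median of all genes moved from 0.05 to -0.05 on the deposited scaling and to 0.10 with median centring. With the replicate number as a block, 753 genes and 2 members were called, SFRP2 and SFRP1 (-0.79 ± 0.12 SE, adjusted p = 0.00359). Whether equal numbers mark a shared culture is not known here. The correlation of same-numbered deviations ran from 0.014 to 0.234 and was over 0.1 in 3 of 4 pairs, not in all, so the numbers were not taken as pairs, although 6 of 8 arrays correlated best with their own number, a hint from the data and not from the design.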

Other observations

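The members differed in how far sorts of the same group lay apart. The pooled SD within groups was 0.47 for SFRP1 and 0.41 for AXIN2, beside medians of 0.22 and 0.25 over genes with a mean level within 0.5 of theirs, which put them at the 94.5th and 90.1st percentile of those genes. BAMBI, at 0.36 beside 0.24, was at the 83.7th percentile. DKK3 (0.13 beside 0.25) and LEF1 (0.26 beside 0.43) were at the 5.6th and 10th. SFRP2 had 0.17 beside 0.22, at the 25.8th percentile. SFRP1 and SFRP2, which differed by nearly the same amount between small and large cells, thus stood far apart in the spread between sorts. With the replicate number as a block, their standard errors were alike, at 0.1178 for SFRP1 and 0.1175 for SFRP2. Whether equal numbers mark a shared culture is not known.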
